A study of Homo sapiens with 4 samples.

Results

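The CCN genes encode secreted proteins of the extracellular matrix. They were followed here in LX-2, an immortalised culture of hepatic stellate cells of human origin, which in injured liver make scar matrix. The members were the rows of the count table whose gene name was CCN1 to CCN5, 5 genes of the 63241 in the table. The family was chosen by a measured value: CCN2 had the highest count of any gene in the library treated with BDS4, so the levels of CCN2 in that library are given as a description. CCN6, which the rule did not name, had 0 counts in all 4 libraries.

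RNA was sequenced from 4 cultures, 1 library per group. All had been held for 24 h in medium with 0.5% serum. The first group then received TGF-β at 20 ng/mL with BDS4 at 5 µM for 24 h, the second TGF-β with RVX-208 at the same doses and time, the third TGF-β alone, and the fourth, the control, no TGF-β. DMSO is named in the label of the cells with TGF-β alone. The sources used here do not give the vehicle of the control cells. BDS4 is a code name. The study, by its title, was about compounds against the first bromodomain (BD1) of BET proteins, which read acetylated histones. RVX-208, also called apabetalone, is a BET inhibitor that prefers the second bromodomain. LX-2 is a single line, so the libraries say nothing of variation between donors.

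CCN proteins are built from modules that resemble an IGF-binding domain, a von Willebrand domain, a thrombospondin repeat and, except in CCN5, a cystine knot. They bind integrins, heparan sulphate proteoglycans and growth factors at the cell surface, and so change how cells adhere and respond to TGF-β and other ligands. CCN2, or connective tissue growth factor, is a textbook target of TGF-β and of the YAP/TAZ-TEAD complex and is widely used as a marker of fibrosis. CCN1 shares the TEAD and serum response elements and is an immediate early gene, and CCN3 has been described as a counterpart that opposes CCN2.

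The genes lie apart in the genome. On GRCh38 with the GENCODE 29 annotation, CCN1 (ENSG00000142871, formerly CYR61) is at chr1:85580761-85583962 on the plus strand and CCN2 (ENSG00000118523, formerly CTGF) at chr6:131948176-131951373 on the minus strand. CCN3 (ENSG00000136999, formerly NOV) is at chr8:119416306-119424353 and CCN4 (ENSG00000104415, formerly WISP1) at chr8:133191039-133231690, both on the plus strand. CCN5 (ENSG00000064205, formerly WISP2) is at chr20:44714844-44728509, also on the plus strand. Counts here are over whole genes. In CCN2, 195 exon bases are shared with an antisense gene on the plus strand. The library kit keeps strand, but the strand setting of the counting is not given, so reads from the pair cannot be told apart over those bases.

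The promoter of CCN2 is shown because CCN2 is the only member that was matched to a promoter sequence. Its upstream sequence is where TEAD, the factor that YAP and TAZ bind, is known to act. The RefSeq sequence of the 250 bases before the start (GRCh38.p14, chr6:131951373-131951622, minus strand) is printed 5′ to 3′, with each match to the TEAD motif in capitals.

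CCN2 promoter: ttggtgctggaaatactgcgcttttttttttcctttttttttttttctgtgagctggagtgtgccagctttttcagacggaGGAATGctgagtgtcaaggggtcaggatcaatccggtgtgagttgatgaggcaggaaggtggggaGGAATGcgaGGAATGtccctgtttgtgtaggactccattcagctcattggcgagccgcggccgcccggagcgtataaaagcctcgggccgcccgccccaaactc

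GGAATG, the TEAD motif, occurred 3 times, at 169 to 164, 104 to 99 and 95 to 90 bases before the start. Of 35116 human promoters of the same length, 11.9% held this motif at least once on either strand, and 0.0826% (29 promoters) held 3 or more matches, a cut-off chosen after the CCN2 sequence was read. No match was found on either strand for the motifs of AP-1 (TGANTCA, in 6.57% of promoters), SMAD (CAGACA, 13.6%), NRF2 (TGACNNNGC, 10.9%), ATF4 (TGATGNAA, 3.14%), HIF (ACGTG, 18.5%) or SRF (the CArG box, 1.16%). These are exact letter matches in 1 window, and binding was not measured. CAGACG, just before the first TEAD match, differs from the SMAD motif in its last letter and was not counted. The search thus does not show that the window lacks a SMAD site. Of the 5 members, only CCN2 was matched to a promoter sequence. CCN1, CCN3, CCN4 and CCN5 were not.

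**Figure D1:**
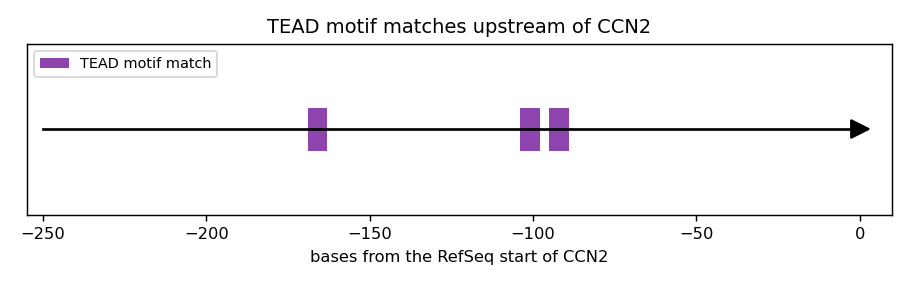
Map of the 250 bases upstream of CCN2, with the distance from the RefSeq start in bases on the horizontal axis. Boxes mark the 3 matches to the TEAD motif, of which the nearest pair lies between 104 and 90 bases before the start.

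The libraries held 21618509 counts with TGF-β and BDS4, 17022369 with TGF-β and RVX-208, 21860122 with TGF-β alone and 22503094 in the control. Levels are TMM-scaled CPM, the count of a gene per 1000000 counts of its library. With 1 library per group there is no replicate error. Ranges in brackets are 95% exact intervals that cover counting error only, so differences between libraries have no replicate check and no p-value. Genes were called by a rule of size, a ratio of 2 or more in either direction whose interval excluded 1. CCN1, CCN2 and CCN3 were above 1 CPM in every library and were among the 16099 genes compared. CCN4 and CCN5 were below 1 CPM in every library and were left out of the calls.

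The labelled cell type was checked against markers. Of 10 stellate and myofibroblast genes, 9 were detected with TGF-β and BDS4 and 8 in each other library. Their summed level was 4616 CPM with BDS4, 8213 CPM with RVX-208, 10109 CPM with TGF-β alone and 6450 CPM in the control. Most of the BDS4 sum was VIM, at 4080 CPM with BDS4 and 3551 CPM with TGF-β alone, which was not called. Of the 8 compared, 0 were called higher and 6 lower with BDS4 against TGF-β alone (median log2 ratio -3.52). In that comparison 14.5% of all genes were called higher and 17.7% lower. LRAT, the retinol-storing enzyme of resting stellate cells, was at 0 in all 4, and DES at 0 in all but the BDS4 library. Of 6 hepatocyte markers, APOB, TTR and CYP3A4 were at 0 in all 4, while the other 3 were detected in 2 or more libraries. The 1 hepatocyte marker that reached 1 CPM was called lower with BDS4 against TGF-β alone. The 6 summed to 1.62 CPM with BDS4, 2.14 CPM with RVX-208, 3.80 CPM with TGF-β alone and 2.60 CPM in the control. The library with BDS4 stood apart in RNA composition. Mitochondrial rRNA took 0.903% of its counts, against 0.230% with RVX-208, 0.248% with TGF-β alone and 0.212% in the control. The 13 mitochondrial mRNAs went the other way, at 0.891% with BDS4, 1.48% with RVX-208, 1.49% with TGF-β alone and 1.47% in the control. All 7 long non-coding RNAs checked were called higher with BDS4 than with TGF-β alone (summed level 3452 against 1114 CPM). The 5 epithelial markers summed to 172 CPM with BDS4, against 762 CPM with TGF-β alone. In the same libraries, 5 endothelial markers summed to 11.8 against 6.16 CPM and 5 leukocyte markers to 20.0 against 17.3 CPM. The part of these differences in the CCN values was not tested, and with 1 library they cannot be told apart from the treatment. In bulk RNA, a change in the cells present and a change in RNA per cell cannot be told apart either.

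CCN2 was the most counted gene of the BDS4 library, the member with the largest difference in every comparison with that library, and the only member called higher with TGF-β alone. Its level was 7432 CPM (7395 to 7469) with TGF-β and BDS4, 612 CPM (600.2 to 624) with TGF-β and RVX-208, 545 CPM (536 to 555) with TGF-β alone and 161 CPM (156 to 167) in the control. The counts behind these levels were 151561, 10301, 12040 and 3855 in the same order of groups. The libraries thus ran from the control at the low end, through a close pair of TGF-β alone and RVX-208, to BDS4. By count, CCN2 was the gene of rank 1 with BDS4, rank 166 with RVX-208, rank 172 with TGF-β alone and rank 1238 in the control. Per kilobase of exon, its rank was 7 with BDS4, 102 with RVX-208, 115 with TGF-β alone and 563 in the control. It took 0.701% of all counts with BDS4, against 0.0551% with TGF-β alone.

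CCN1 had a high and flatter profile. Its level was 1237 CPM (1222 to 1253) with TGF-β and BDS4, 571 CPM (560 to 583) with TGF-β and RVX-208, 623 CPM (612 to 633) with TGF-β alone and 570 CPM (560 to 579) in the control. Only the BDS4 library stood well apart, and the intervals of RVX-208 and the control overlapped. CCN1 was the gene of rank 47 by count with BDS4 and of rank 135 to 189 in the other libraries.

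CCN3 was a minor member, with 9.76 CPM (8.45 to 11.2) with TGF-β and BDS4, 3.15 CPM (2.36 to 4.12) with TGF-β and RVX-208, 7.16 CPM (6.08 to 8.36) with TGF-β alone and 8.46 CPM (7.33 to 9.71) in the control. Ordered by level, BDS4, control and TGF-β alone each overlapped the next in their intervals, and RVX-208 lay below all of them. Its counts were 199, 53, 158 and 202 in the order of groups given for its levels.

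CCN4, first described as a Wnt-induced gene, had 0 counts with BDS4, 3 with RVX-208, 14 with TGF-β alone and 4 in the control. A count of 0 with BDS4 allows up to 0.147 CPM, the level of 3 counts in that library. CCN5 had 1 count with BDS4, 0 with RVX-208, 0 with TGF-β alone and 4 in the control. Both were near the limit of detection at this depth.

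**Figure D2:**
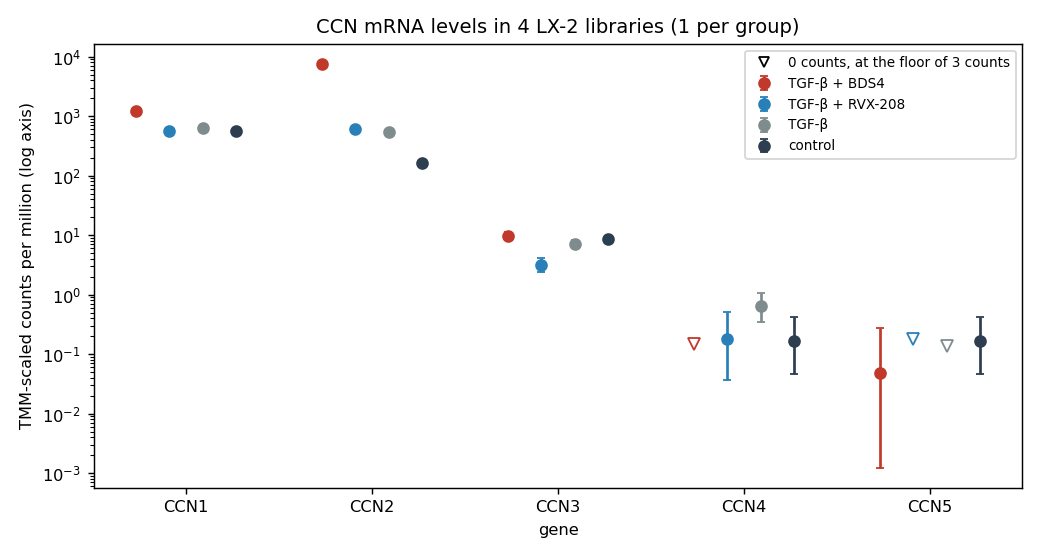
Levels of the 5 CCN genes (horizontal axis) in TMM-scaled CPM on a log axis, with 1 point per library and bars for the 95% counting interval; open triangles mark 0 counts, drawn at the level of 3 counts. CCN2 spans 161 CPM in the control to 7432 CPM with BDS4, while CCN1 stays between 570 and 1237 CPM and CCN4 and CCN5 lie below 1 CPM.

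Under TGF-β, the balance of the family moved towards CCN2. The 5 genes together summed to 8679 CPM with TGF-β and BDS4, 1186 CPM with RVX-208, 1176 CPM with TGF-β alone and 740 CPM in the control. CCN2 made up 85.6% of the family's counts with BDS4, 51.6% with RVX-208, 46.4% with TGF-β alone and 21.8% in the control. CCN1 made up 14.3%, 48.1%, 53.0% and 77.0% in the same order of groups. CCN1 thus led the family in the control, CCN2 and CCN1 had similar shares with TGF-β alone and with RVX-208, and CCN2 led with BDS4.

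A ratio of 2 genes within a library needs no scaling between libraries. There were 6.01 counts of CCN2 (5.93 to 6.09) for each count of CCN1 with BDS4, 1.07 (1.04 to 1.10) with RVX-208, 0.876 (0.855 to 0.898) with TGF-β alone and 0.283 (0.273 to 0.294) in the control. None of these intervals overlapped. Levels of different genes are comparable only per length. With the exon lengths of GENCODE 29, the level per kilobase of CCN2 over that of CCN1 was 6.30 with BDS4, 1.12 with RVX-208, 0.919 with TGF-β alone and 0.297 in the control. The deposited FPKM values gave 24.2, 4.32, 3.53 and 1.14 for the same ratio, so the gene with the higher level was CCN2 in all 4 libraries by FPKM and CCN1 in TGF-β alone and control by exon length. The FPKM values of CCN1 imply a length of 9434 bases, where the annotated exons cover 2455 bases, and those of CCN2 a length of 2338 against 2339 bases. Ratios of 1 gene between libraries are free of this length.

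**Figure D3:**
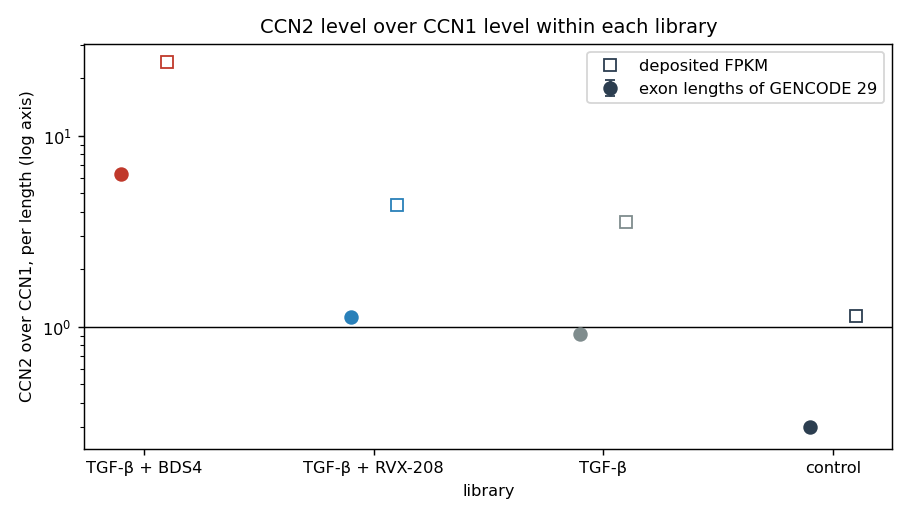
CCN2 level over CCN1 level per length (log axis) within each of the 4 libraries, with filled circles for exon lengths of GENCODE 29 (bars for 95% counting intervals, smaller than the symbols) and open squares for the deposited FPKM. Both run in the same order, from 6.30 or 24.2 with BDS4 down to 0.297 or 1.14 in the control, but only the circles cross the line at 1.

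TGF-β is a main inducer of CCN2 in stellate cells, and the first question was how the family stood with TGF-β alone against the control. CCN2 was 3.38-fold higher (3.26 to 3.50). It was the only one of 3 members called, and in this comparison 5.32% of all genes were called higher and 4.35% lower, 9.67% together. CCN2 stood at place 292 of 16099 genes ordered by their log2 ratio from the highest. CCN1 was not called, with a ratio of 1.09 (1.07 to 1.12), nor was CCN3 at 0.846 (0.683 to 1.05). CCN4, with 14 counts against 4, had a ratio of 3.79 with a wide interval of 1.19 to 15.8.

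With TGF-β and BDS4, CCN2 was 13.6-fold higher (13.4 to 13.9) than with TGF-β alone, the contrast closest to the one by which the family was chosen. It was the only one of 3 members called, where 14.5% of all genes were called higher and 17.7% lower, 32.2% together. CCN2 stood at place 126 of 16099 from the highest. CCN1 was 1.99-fold higher (1.95 to 2.03), just short of the 2-fold rule, and it passed when counts were scaled by DESeq2 size factors (log2 ratio 1.01 in place of 0.99). CCN3 had a ratio of 1.36 (1.10 to 1.69) and was not called. CCN4 had 0 counts against 14 and is given no ratio.

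With TGF-β and RVX-208, CCN1 and CCN2 stayed close to TGF-β alone. CCN2 had a ratio of 1.12 (1.09 to 1.15) and CCN1 of 0.917 (0.894 to 0.942), and neither was called. CCN3 was 2.27-fold lower (1.66 to 3.16), from 53 counts against 158. It was the only one of 3 members called, where 5.23% of all genes were called lower and 2.94% higher, 8.17% together. CCN4 had 3 counts against 14, a level 3.56-fold lower with an interval of 0.993 to 19.3 that includes no difference. These comparisons share the library with TGF-β alone, so counting error in it enters each of them.

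The compounds were compared directly at 5 µM and 24 h, 1 pair with 1 library each and so without a test. All 3 members were called higher with BDS4 than with RVX-208, where 11.7% of all genes were called higher and 13.1% lower, 24.8% together. CCN2 was 12.1-fold higher (11.9 to 12.4), CCN3 3.10-fold (2.28 to 4.28) and CCN1 2.17-fold (2.12 to 2.22). The CCN2 ratio uses the BDS4 count by which the family was chosen, so it is a description. For CCN3, the level was 9.76 CPM with BDS4 and 3.15 CPM with RVX-208, against 7.16 CPM with TGF-β alone, so the larger part of its distance lay on the side of RVX-208. For CCN1 and CCN2 it lay on the side of BDS4.

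Against the control, which had no TGF-β, BDS4 with TGF-β gave 2 of 3 members called higher, where 14.9% of all genes were called higher and 18.2% lower, 33.1% together. CCN2 was 46.04-fold higher (44.6 to 47.5), at place 24 of 16099 genes, again from the BDS4 count by which the family was chosen. CCN1 was 2.17-fold higher (2.13 to 2.22), a call lost under scaling by library totals (log2 ratio 0.95). CCN3 had a ratio of 1.15 (0.944 to 1.41). RVX-208 with TGF-β gave CCN2 3.79-fold higher (3.65 to 3.93), and CCN3 2.69-fold lower (1.98 to 3.71), so that 2 of 3 members were called, 1 in each direction. Of all genes, 5.39% were called higher and 6.86% lower, 12.2% together. CCN1 stood at 571 against 570 CPM, and the sign of its log2 ratio changed under scaling by library totals or upper quartile.

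**Figure D4:**
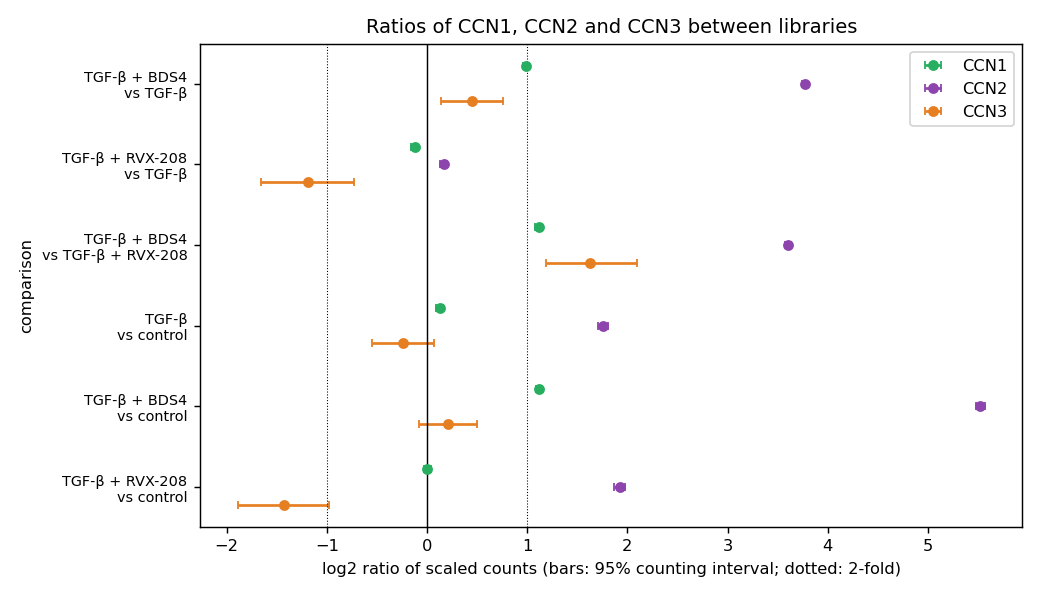
Log2 ratios of CCN1, CCN2 and CCN3 (horizontal axis) in the 6 comparisons of libraries, with bars for the 95% counting interval and dotted lines at 2-fold. CCN2 lies at 2-fold or beyond in 5 of the 6 comparisons and near 0 for RVX-208 against TGF-β alone, CCN1 reaches the line at 2-fold only where BDS4 is compared, and CCN3 lies on the lower side where RVX-208 is compared with TGF-β alone or the control.

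Genes of the CCN pathway were taken as lists, described by counts and medians beside the median log2 ratio of all genes, which was between -0.01 and 0.00 in the comparisons of this and the next paragraphs. Of all genes compared, 14.5% were called higher and 17.7% lower with BDS4 against TGF-β alone. The shares with RVX-208 against TGF-β alone were 2.94% higher and 5.23% lower. TGF-β alone against the control gave 5.32% higher and 4.35% lower. The counts of each list below stand beside these shares, and no list was tested against them. Among cell surface receptors, 13 of 16 were compared. With BDS4 against TGF-β alone, 1 was called higher and 4 lower (median 0.25). NOTCH1, which binds CCN3, was higher at 126 against 46.5 CPM. The integrin subunits ITGB5, at 22.1 against 100.5 CPM, and ITGA5, at 129 against 540.2 CPM, were lower, as were ITGA2B and the endocytic receptor LRP1, at 127 against 320 CPM. ITGAV and ITGB1, subunits of several CCN-binding integrins, had log2 ratios of -0.09 and 0.13 and were not called. With RVX-208 against TGF-β alone, only ITGA2B was called, lower. With TGF-β alone against the control, only ITGB5 was called, higher.

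Of the growth factors and matrix proteins that CCN proteins bind, 10 of 14 were compared. With BDS4 against TGF-β alone, 0 were called higher and 5 lower (median -0.65), among them PDGFB, a stellate cell mitogen, at 1.91 against 48.4 CPM, and fibronectin (FN1) at 2726 against 11140 CPM. TGFB1, which encodes the ligand itself, was not called with BDS4 at 905 against 827 CPM. With RVX-208 against TGF-β alone, 0 were higher and 2 lower, SLIT3 and FN1 (median -0.39). With TGF-β alone against the control, 4 were higher and 0 lower (median 0.62), including TGFB1 at 827 against 213 CPM.

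Of 13 proteases known to cleave CCN proteins, 6 were compared. With BDS4 against TGF-β alone, 1 was higher and 5 lower (median -2.65). Interstitial collagenase MMP1 was the higher one, at 360 against 26.8 CPM, and the gelatinases MMP2, at 8.78 against 251 CPM, and MMP9, at 0.785 against 28.6 CPM, were lower. With RVX-208 against TGF-β alone, MMP1 was again higher, at 71.6 against 26.8 CPM, and MMP9 lower, at 6.71 against 28.6 CPM (median of the list -0.48). With TGF-β alone against the control, 3 were higher and 1, MMP1, lower (median 1.25).

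CCN1 and CCN2 are standard readouts of YAP/TAZ-TEAD, and 20 other targets of that complex were compared. With BDS4 against TGF-β alone, 4 were higher and 10 lower (median -0.80). ANKRD1, a cardiac ankyrin repeat protein often used with CCN1 and CCN2 as a YAP readout, was higher at 946 against 77.1 CPM. The DNA damage-inducible gene GADD45A was higher at 634 against 141 CPM, as were IGFBP3 and AMOTL2. TGFB2, at 19.4 against 133 CPM, and the matrix gene CCDC80 were among the 10 lower. So were AXL, at 341 against 1053 CPM, MYOF, at 29.8 against 132 CPM, and NT5E, at 278 against 643 CPM. With RVX-208 against TGF-β alone, 0 were higher and 1, TGFB2, lower (median -0.15). With TGF-β alone against the control, 1 was higher and 2 lower (median -0.15).

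Of 20 other TGF-β/SMAD targets, 19 were compared. With BDS4 against TGF-β alone, 2 were higher and 13 lower (median -1.53). The members called higher, as CCN2 was, were the cytokine IL11, at 1092 against 319 CPM, and the protease inhibitor TIMP1, at 701 against 347 CPM. COL1A1, a chain of type I collagen, was at 103 against 4705 CPM. COL3A1, POSTN and COL1A2 were also lower, but from few counts, 2, 0 and 4 against 163, 69 and 181. With RVX-208 against TGF-β alone, 0 were higher and 6 lower (median -0.37), led by POSTN and COL3A1. Those 2 genes had only 2 and 10 counts with RVX-208. With TGF-β alone against the control, 16 were higher and 0 lower (median 1.89), the direction that CCN2 took.

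Serum response factor and its MRTF cofactors act on CCN1 and CCN2 through CArG boxes. Of 16 other targets, 0 were higher and 9 lower with BDS4 against TGF-β alone (median -1.06), with tropomyosin TPM1 lowest at 262 against 1720 CPM. With RVX-208, 0 of 16 were called in either direction (median -0.19), and with TGF-β alone against the control 1, TPM1, was higher (median 0.30). Among 20 immediate early genes, 8 were higher and 4 lower with BDS4 (median 0.54). FOS was at 22.6 against 2.94 CPM and KLF2 at 175 against 24.9 CPM, while IER2 was lower at 0.932 against 39.04 CPM and EGR2 at 2.70 against 36.05 CPM. With RVX-208, 2 were higher and 3 lower (median 0.09), and with TGF-β alone against the control 5 were higher and 2 lower (median 0.08).

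Of 21 transcription factors and cofactors known to act on CCN1 or CCN2, 2 were higher and 6 lower with BDS4 against TGF-β alone (median -0.22). In that comparison 14.5% of all genes were called higher and 17.7% lower, and a difference from those shares was not tested. Of the TEAD factors, the DNA-binding partners of YAP, TEAD1 was higher at 280 against 106 CPM. TEAD2, at 9.12 against 20.4 CPM, and TEAD3, at 31.5 against 75.5 CPM, were lower, and TEAD4 was not called (log2 ratio 0.66). YAP1 was lower at 116 against 286 CPM. SMAD3, which carries the TGF-β signal to the nucleus, was lower at 68.8 against 196 CPM. Of the BET genes, BRD2 was not called (log2 ratio 0.90), nor was BRD3 (0.39). With RVX-208, 0 of 21 were called (median -0.15). With TGF-β alone against the control 2 were higher and 0 lower (median 0.20), including WWTR1, which encodes TAZ, at 42.1 against 12.9 CPM.

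**Figure D5:**
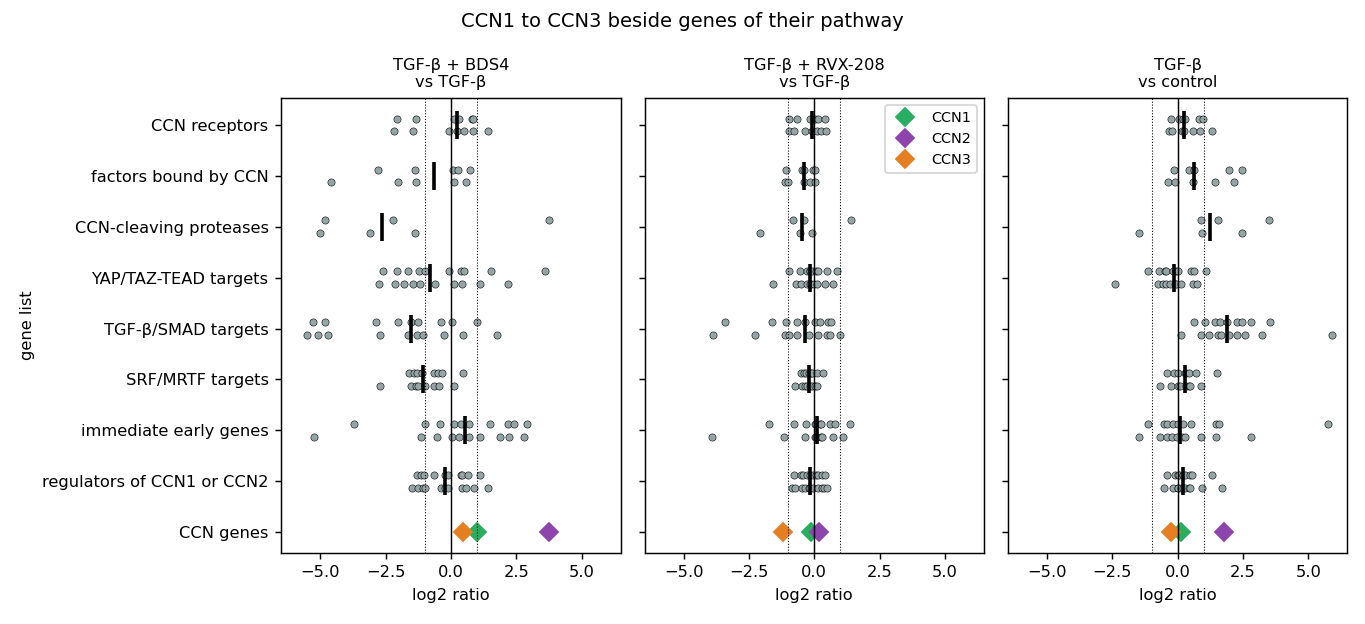
Log2 ratios (horizontal axes) of the compared genes of 8 lists and of CCN1, CCN2 and CCN3 (diamonds) in 3 comparisons of libraries, with grey points for genes, black ticks for list medians and dotted lines at 2-fold. Under BDS4 the median of the TGF-β/SMAD targets is -1.53 and that of the SRF/MRTF targets -1.06, while CCN2 stands at 3.77; under TGF-β alone the SMAD targets have a median of 1.89 and CCN2 stands at 1.76.

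Likeness of profile was measured as the distance between genes over 3 log2 ratios, TGF-β alone against the control and each compound against TGF-β alone, among 10899 genes that reached 10 CPM in at least 1 of the 4 libraries. The nearest gene to CCN2 was DUSP6, a phosphatase that limits ERK signalling, at a distance of 0.604. DUSP6 had 999 CPM with BDS4, 143 CPM with RVX-208, 87.9 CPM with TGF-β alone and 27.8 CPM in the control. ALK (0.742), AP3B2 (1.07), BMP6 (1.24) and LINC00324 (1.31) followed. ALK, a receptor tyrosine kinase, stood at 10.2, 1.25, 1.13 and 0.335 CPM in the same order of groups. Genes near CCN1 lay much closer, with CD81, the nearest, at 0.0677, GSTT2B at 0.0968 and DISP3 at 0.129. CD81, a tetraspanin, had 327 CPM with BDS4, 154 CPM with RVX-208, 168 CPM with TGF-β alone and 147 CPM in the control. ALK, AP3B2, BMP6 and LINC00324 reached 10 CPM only with BDS4, so they entered through the library where CCN2 was highest. GSTT2B, near CCN1, also reached 10 CPM only with BDS4, the library where CCN1 was highest too. The distances from CCN2 also use the BDS4 count by which the family was chosen. All distances here describe 4 libraries and are not a test.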

How the data were processed

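RNA-seq of LX-2 cells gave 4 libraries, 1 per group. The table of counts holds unscaled whole numbers, deposited as the authors made them by a program not given in the sources used here, as are the annotation release and the strand setting. The deposited FPKM values were made with StringTie 1.3.0, per the series' design text. CASAVA 1.8, TopHat2 2.0.6 and GRCh38 are named in the submitters' processing notes. Table columns were matched to groups through the sample descriptions, and the BDS4 column by its description alone, since its code does not name the compound. In 9069 genes with over 200 counts in every library, FPKM followed the count over library total with a single length per gene, within 0.000417%. Over 15504 genes that length was a median of 1.62 times the annotated exon length.

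Counts were scaled with TMM factors (edgeR 4.0.16, R 4.3.3) of 0.943 with BDS4, 0.989 with RVX-208, 1.01 with TGF-β alone and 1.06 in the control. Genes that reached 1 CPM in 1 library or more were compared. Ratios have 95% conditional exact (Clopper-Pearson) intervals, levels exact Poisson intervals, and both cover counting error only. At 17022369 to 22503094 counts per library, 3 counts are 0.126 to 0.178 CPM. The log2 ratios of lists use a prior count of 2. Exon lengths and positions came from GENCODE 29, the promoter sequence from RefSeq (GRCh38.p14). The other tools were Python 3.11.15, numpy 2.4.6, scipy 1.17.1, pandas 2.3.3 and matplotlib 3.10.9.

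The genes named are all members, up to 4 genes per list and comparison with the largest absolute log2 ratio, list genes that background sentences name, and the 5 genes nearest to each member with at least 10 CPM. IGFBP3, AMOTL2, TIMP1, IL11, TEAD2, TEAD4 and, for BDS4, LRP1 fell outside this rule and were chosen after their values were seen. BRD2, BRD3 and ITGB1 also fell outside the rule. The same holds for ITGAV, TGFB1, AXL, MYOF and NT5E where BDS4 is set against TGF-β alone. Among the markers, VIM, DES, APOB, TTR and CYP3A4 were named outside it too. Some genes that the rule names are not reported here. Members and lists were chosen with earlier results of these data known. Alternatives were scaling by library totals, upper quartile and DESeq2 1.42.0 size factors, other filters, a 1.5-fold rule and FPKM ratios.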

Additional observations from a re-analysis of the deposited data

How the results depend on the processing

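The log2 ratios of CCN2 kept their direction and their calls in all 6 comparisons under each scaling tried and with FPKM ratios, as did those of CCN3, and 66 of 72 alternative ratios of the 3 members gave the same direction and call. For BDS4 against TGF-β alone, 2 members were called in place of 1 under DESeq2 size factors and at 1.5-fold. For BDS4 against the control, 1 was called in place of 2 under library totals, which moved the median of all genes to -0.18. The log2 ratio of CCN1 for RVX-208 against the control was -0.10 under library totals and by FPKM and -0.054 under upper quartile, in place of 0.00. With the lengths of the deposited FPKM, a choice added after seeing the data, CCN2 over CCN1 was 3.53 with TGF-β alone and 1.14 in the control, in place of 0.919 and 0.297. A minimum of 5 CPM left 863 genes called for TGF-β alone against the control (1557 at 1 CPM), 658 for RVX-208 against TGF-β alone (1315) and 1102 for RVX-208 against the control (1972), where fewer genes were compared. At 1.5-fold, genes called were 3074 for TGF-β alone against the control, 8201 and 2745 for BDS4 and RVX-208 against TGF-β alone (5180 and 1315 at 2-fold), 6901 for BDS4 against RVX-208 (3994), and 8467 and 3786 for BDS4 and RVX-208 against the control (5330 and 1972), by the construction of a lower limit. No paired analysis was possible because each group is 1 library, and for the same reason no library could be left out. CCN4 and CCN5 are limited by depth.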
